A study of Mus musculus with 8 samples.

Results

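NADPH oxidases are membrane enzymes that take electrons from NADPH and pass them to oxygen, giving superoxide or hydrogen peroxide. In the intestinal epithelium this output meets microbes at the cell surface, and the inducible nitric oxide synthase encoded by Nos2 adds nitric oxide to it. Nox1, Nox4 and Cybb (also called Nox2) encode catalytic subunits that need the small membrane partner p22phox, the product of Cyba, whereas Duox2 does not and depends on its maturation factor Duoxa2. Noxo1 and Noxa1 encode the cytosolic organizer and activator of the Nox1 complex, and Paneth cells at the crypt base, best known for their antimicrobial granules, lie where this complex could act on the crypt lumen.

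The values below describe 9 of the 55414 gene IDs in the count table: Cyba, Cybb, Nox1, Nox4, Noxo1, Noxa1, Duox2, Duoxa2 and Nos2, matched to Ensembl gene IDs by symbol. They were chosen by gene family after the zinc comparison of these same libraries was known, in which Cyba was past the threshold. The zinc differences of all 9 genes are therefore given as descriptions, without p-values. Paneth cells, purified by fluorescence-activated cell sorting, came from the small intestine of 8 C57BL/6J mice, an inbred strain, of which 4 drank ultrapure (Milli-Q) water and 4 drank water with 25 mM ZnSO4, both for 7 days. Each library stood for 1 mouse, with age and sex not given in the sources used here.

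Library totals ran from 20760764 to 24117111 counts. The 6 Paneth cell markers (Lyz1, Defa24, Mmp7, Itln1, Ang4 and Mptx2) summed to between 323831 and 623781 CPM with water and to between 306404 and 626216 CPM with zinc, where CPM are counts scaled to library size with TMM factors. T cell, B or plasma cell and stromal or endothelial markers each summed to under 1 CPM in every library. Markers of other epithelial cells were present, with goblet cell markers at 8129 to 13694 CPM with water and 10207 to 13309 CPM with zinc, and crypt stem cell markers at 4356 to 5728 and 3047 to 4455 CPM. Spink4 was the largest part of the goblet cell sum, and Olfm4 made up most of the crypt stem cell sum. The paper reports that its sorted Paneth cells held very few contaminating cells. Which cells the RNA of these markers came from was not tested. In a bulk library, fewer cells that express a gene and less of its RNA per cell cannot be told apart. A count of 0 allowed a level of up to 0.115 to 0.188 CPM per library (3 counts, counting error only).

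Of the 9 genes, 7 held enough counts for the fit over all genes, and all 7 had a lower mean with zinc, with Nox1 and Nos2 farthest apart and Noxo1 closest. Cybb and Nox4 were too scarce to fit. Cybb (ENSMUSG00000015340, GRCm39 chromosome X, 9301491 to 9354010, minus strand), the catalytic subunit of phagocytes, had 2 counts in water replicate 3 and 0 counts in the other 7 libraries. Nox4 (ENSMUSG00000030562, chromosome 7, 86895304 to 87047918, plus strand), a catalytic subunit that gives hydrogen peroxide, had 0 counts in all 8 libraries. Neither gene was detectable above the limit that 0 counts allow. Phagocyte markers were scarce too, as the 10 listed genes summed to between 0.338 and 2.10 CPM with water and to between 0.119 and 1.12 CPM with zinc, and S100a8, S100a9 and Fcgr3 had 0 counts in every library.

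Cyba (ENSMUSG00000006519, chromosome 8, 123150422 to 123159706, minus strand, 7 merged exons) stood at 35.7, 38.1, 27.2 and 36.2 CPM in water replicates 1 to 4. In zinc replicates 1 to 4 it stood at 23.0, 16.2, 16.3 and 17.8 CPM. The lowest water library, replicate 3, was above the highest zinc library, replicate 1, so the groups did not overlap. Water mice averaged 34.3 ± 4.88 CPM and zinc mice 18.3 ± 3.18 CPM (SD, n = 4 per group), for a log2 fold change of -0.91 (SE 0.14). Cyba was the 1 gene of the 9 past the threshold of the edgeR quasi-likelihood test over all genes. In that test 0.0834% of the 11988 tested genes were called, 0.0584% lower with zinc and 0.025% higher. Its membership rests on this comparison, so nothing is read from the count. The call was absent without water replicate 2 and without zinc replicate 2, where the log2 fold changes were -0.86 and -0.85. It was also absent with library totals as the only scaling and without replicate 4 of both groups, at -0.93 and -0.87. The promoter window of Cyba (250 bases before to 50 bases after the annotated start, chr8:123159657-123159956 of GRCm39, minus strand, canonical transcript) is shown because Cyba was the member past the threshold. Capitals mark matches to the GC box (GGGCGG).
Cyba: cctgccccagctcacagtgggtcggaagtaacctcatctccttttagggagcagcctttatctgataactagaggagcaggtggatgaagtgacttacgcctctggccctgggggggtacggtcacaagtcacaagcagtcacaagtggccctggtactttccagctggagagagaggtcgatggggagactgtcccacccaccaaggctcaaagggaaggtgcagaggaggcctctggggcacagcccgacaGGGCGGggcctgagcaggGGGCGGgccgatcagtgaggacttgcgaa
The window held 2 GC boxes, at bases 4 to 9 and 22 to 27 counted from 1 at the start, and no match to the other 5 motifs searched on both strands: the TATA box (TATAAA), the metal response element core (TGCACNC or TGCGCNC), the NF-κB consensus, the interferon gamma-activated element GAS (TTCNNNGAA) and an ISRE-like element (GAAANNGAA). A GC box was present in 42.5% of the same windows of 21770 protein-coding genes.

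Nox1 (ENSMUSG00000031257, chromosome X, 132987170 to 133122705, minus strand, 18 merged exons), the catalytic subunit that is typical of gut epithelium, was the member with the largest difference. It had 125, 157, 273 and 908 counts in water replicates 1 to 4, which were 7.82, 6.74, 11.5 and 34.7 CPM. It had 19, 2, 12 and 116 counts in zinc replicates 1 to 4, which were 1.13, 0.0966, 0.474 and 4.50 CPM. Replicate 4 was the highest library of both groups, zinc replicate 2 was under the limit that 0 counts allow, and the groups did not overlap. Water mice averaged 15.2 ± 13.1 CPM and zinc mice 1.55 ± 2.01 CPM (SD, n = 4 per group), for a log2 fold change of -3.25 (SE 1.05). The spread within the water group was nearly as large as its mean, and Nox1 was outside the threshold. It was past the threshold with the replicate number as a block (-3.60) and without replicate 4 of both groups (-4.01). The sample labels give no pairing by replicate number. For Nox1 the water libraries alone met the low-count filter, and the zinc libraries alone did not.

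Nos2 (ENSMUSG00000020826, chromosome 11, 78811613 to 78851080, plus strand, 29 merged exons), the inducible nitric oxide synthase, had a similar shape at a lower level. It had 40, 70, 137 and 170 counts with water, or 2.50, 3.01, 5.80 and 6.49 CPM in replicates 1 to 4. It had 27, 2, 0 and 16 counts with zinc, or 1.60, 0.0966, 0 and 0.621 CPM. All zinc libraries lay below all water libraries, and zinc replicates 2 and 3 were under the limit that 0 counts allow. Water mice averaged 4.45 ± 1.99 CPM and zinc mice 0.580 ± 0.735 CPM (SD, n = 4 per group), for a log2 fold change of -3.03 (SE 0.89), outside the threshold. For Nos2 too, the water libraries alone met the low-count filter and the zinc libraries alone did not.

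The promoter windows of Nox1 (chrX:133012554-133012853, minus strand, at the canonical start, which lies within the annotated gene) and Nos2 (chr11:78811363-78811662, plus strand) are shown because these genes differed most between the groups. Capitals mark matches to the motifs named above.
Nox1: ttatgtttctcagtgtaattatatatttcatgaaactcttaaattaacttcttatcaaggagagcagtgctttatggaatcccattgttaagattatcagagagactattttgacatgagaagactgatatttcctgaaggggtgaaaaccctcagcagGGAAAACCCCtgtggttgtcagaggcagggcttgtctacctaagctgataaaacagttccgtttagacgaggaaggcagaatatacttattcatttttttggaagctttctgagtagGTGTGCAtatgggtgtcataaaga
Nos2: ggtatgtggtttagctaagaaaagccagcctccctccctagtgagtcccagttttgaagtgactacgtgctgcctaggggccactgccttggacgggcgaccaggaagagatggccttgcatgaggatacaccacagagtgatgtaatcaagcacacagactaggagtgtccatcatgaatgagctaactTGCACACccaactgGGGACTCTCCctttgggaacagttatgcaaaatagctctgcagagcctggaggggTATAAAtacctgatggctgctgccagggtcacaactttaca
Each window held 1 match to the NF-κB consensus, from 91 to 82 bases before the annotated start of Nox1 on the opposite strand and from 46 to 37 bases before that of Nos2 on the same strand. The consensus was present in 8.97% of the windows of all protein-coding genes. Each window also held 1 metal response element core, at bases 27 to 33 from the start of Nox1 and 60 to 54 bases before that of Nos2, a motif present in 27.4% of all windows. The TATA box of the Nos2 window lay at bases 10 to 15 from the annotated start, a motif present in 13.2% of all windows. A match is a run of letters, and binding was not measured in these libraries.

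Noxa1 and Noxo1, which assemble with Nox1 and p22phox, differed to unequal degrees. Noxa1 (ENSMUSG00000036805, chromosome 2, 24975679 to 24985181, minus strand, 12 merged exons), the activator, stood at 18.7, 21.3, 19.2 and 24.1 CPM with water and at 12.5, 9.03, 10.3 and 18.1 CPM with zinc in replicates 1 to 4. The groups were separated by the narrow step from zinc replicate 4 to water replicate 1. Water mice averaged 20.8 ± 2.43 CPM and zinc mice 12.5 ± 4.02 CPM (SD, n = 4 per group), for a log2 fold change of -0.74 (SE 0.19). Noxa1 was outside the threshold, but past it without zinc replicate 4 (-0.98), with the replicate number as a block (-0.78) and without the low-count filter (-0.73).

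Noxo1 (ENSMUSG00000019320, chromosome 17, 24914682 to 24919504, plus strand, 5 merged exons), the organizer, was the steadiest member between mice. It stood at 39.6, 38.7, 41.6 and 42.9 CPM with water and at 37.1, 34.2, 35.8 and 30.3 CPM with zinc in replicates 1 to 4. Water mice averaged 40.7 ± 1.91 CPM and zinc mice 34.4 ± 2.98 CPM (SD, n = 4 per group), and the log2 fold change of -0.25 (SE 0.11) was the smallest of the 7. Its merged exons cover 4358 bases, of which 2302 are shared with exons of Tbl3 and 609 with exons of Gfer, both on the opposite strand and both expressed here (379 to 678 and 503 to 750 counts). With a strand setting not given in the sources used here, its level is uncertain. Nox1 shares 564 of its 3307 exon bases with Cstf2 on the opposite strand in the same way (449 to 1110 counts), and Noxa1 shares 50 bases with Entpd8. Cyba overlaps Il17c, which had 0 counts in every library. Cybb, which was not detectable here, shares 304 exon bases with Xk on the opposite strand (302 to 460 counts). Whether reads of such neighbours entered or were lost from the members' counts was not tested.

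**Figure D1:**
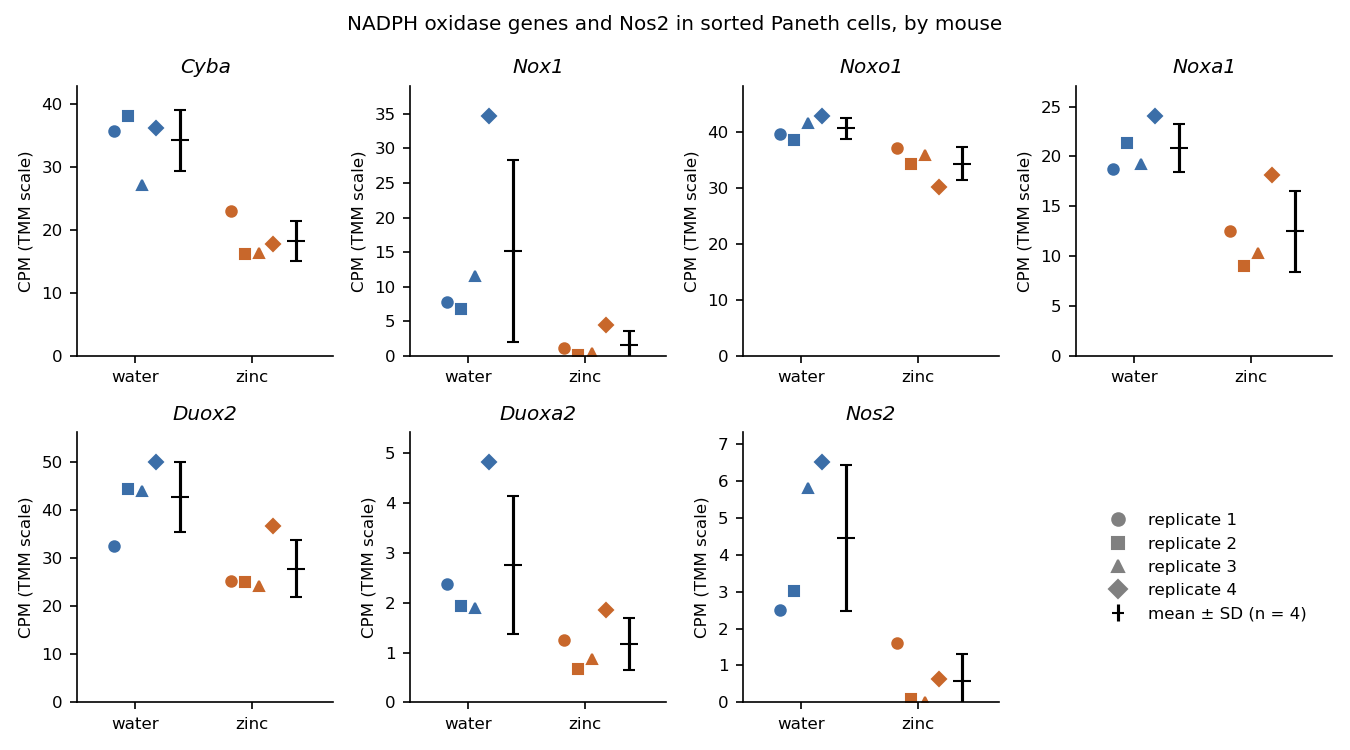
Level of each of the 7 genes with enough counts, in CPM on the TMM scale (vertical axes, each from 0), for 4 water and 4 zinc mice. Marker shape gives the replicate number, bars are the mean and SD of 4 libraries (cut at 0 for Nox1 and Nos2 with zinc), and Duox2 is the gene whose groups overlap, with zinc replicate 4 at 36.7 CPM above water replicate 1 at 32.6 CPM.

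Duox2 and Duoxa2 are neighbours on chromosome 2 that are transcribed away from each other, with 449 bases between their annotated starts. Duox2 (ENSMUSG00000068452, 122109728 to 122128930, minus strand, 33 merged exons), which encodes a dual oxidase that releases hydrogen peroxide, stood at 32.6, 44.5, 43.9 and 49.9 CPM with water. It stood at 25.2, 25.1, 24.2 and 36.7 CPM with zinc in replicates 1 to 4. Zinc replicate 4 lay above water replicate 1, so the groups overlapped, and the other 3 zinc libraries lay between 24.2 and 25.2 CPM. Water mice averaged 42.8 ± 7.27 CPM and zinc mice 27.8 ± 5.96 CPM (SD, n = 4 per group), for a log2 fold change of -0.62 (SE 0.15). Duox2 was outside the threshold, but past it without zinc replicate 4 (-0.79), with the replicate number as a block (-0.63) and without the low-count filter (-0.62).

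Duoxa2 (ENSMUSG00000027225, 122129380 to 122133366, plus strand, 6 merged exons), whose product takes Duox2 protein through the endoplasmic reticulum, was much less abundant. It had 38, 45, 45 and 126 counts with water and 21, 14, 22 and 48 counts with zinc, or 2.38, 1.93, 1.90 and 4.81 CPM against 1.25, 0.676, 0.869 and 1.86 CPM. Replicate 4 was again the highest of each group, and the groups were separated by the step from 1.86 to 1.90 CPM. Water mice averaged 2.76 ± 1.39 CPM and zinc mice 1.16 ± 0.522 CPM (SD, n = 4 per group), for a log2 fold change of -1.24 (SE 0.41). Its 3′ end overlaps Duoxa1 on the opposite strand by 682 exon bases, and Duoxa1 had at most 7 counts in any library.

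The promoter windows of this divergent pair, Duox2 at chr2:122128881-122129180 (minus strand) and Duoxa2 at chr2:122129130-122129429 (plus strand), are shown because they share 51 bases, each written 5′ to 3′ along its own gene. The first 51 letters of one are the reverse complement of the first 51 letters of the other.
Duox2: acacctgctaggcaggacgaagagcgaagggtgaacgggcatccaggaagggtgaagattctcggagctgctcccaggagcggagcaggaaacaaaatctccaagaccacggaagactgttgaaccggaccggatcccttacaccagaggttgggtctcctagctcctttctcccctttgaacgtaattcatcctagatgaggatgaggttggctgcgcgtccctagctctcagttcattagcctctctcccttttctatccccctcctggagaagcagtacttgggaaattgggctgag
Duoxa2: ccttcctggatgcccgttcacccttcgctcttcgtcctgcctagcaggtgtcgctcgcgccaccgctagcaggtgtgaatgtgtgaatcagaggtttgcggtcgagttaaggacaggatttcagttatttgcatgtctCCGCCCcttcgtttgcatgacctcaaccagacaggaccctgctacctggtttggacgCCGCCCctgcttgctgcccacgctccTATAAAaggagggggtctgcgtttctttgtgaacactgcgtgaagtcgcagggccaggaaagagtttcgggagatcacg
Capitals in the Duoxa2 window mark a TATA box 29 to 24 bases before the start and GC boxes 112 to 107 and 55 to 50 bases before it. The Duox2 window held none of the 6 motifs searched.

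Across the 7 genes every log2 fold change was negative, from -0.25 for Noxo1 to -3.25 for Nox1, against a median of 0.01 over all tested genes. Direction was retained in each of the 16 alternative fits in which a gene could be fitted (15 for Duoxa2). Leaving out 1 library moved the log2 fold change of Nox1 between -4.83 and -2.46 and that of Nos2 between -4.16 and -2.59, but that of Cyba only between -1.03 and -0.85. The groups did not overlap in 6 of the 7 genes, with zinc below water, beside 1.59% of all tested genes. With library totals as the only scaling this held for 3 of them, Cyba, Nox1 and Nos2, beside 0.726% of all tested genes. The members were picked with this contrast in view, so these counts are printed for scale and support nothing. TMM factors ran from 0.764 to 1.23, and replicate 1 had the lowest and replicate 4 the highest factor in each group.

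**Figure D2:**
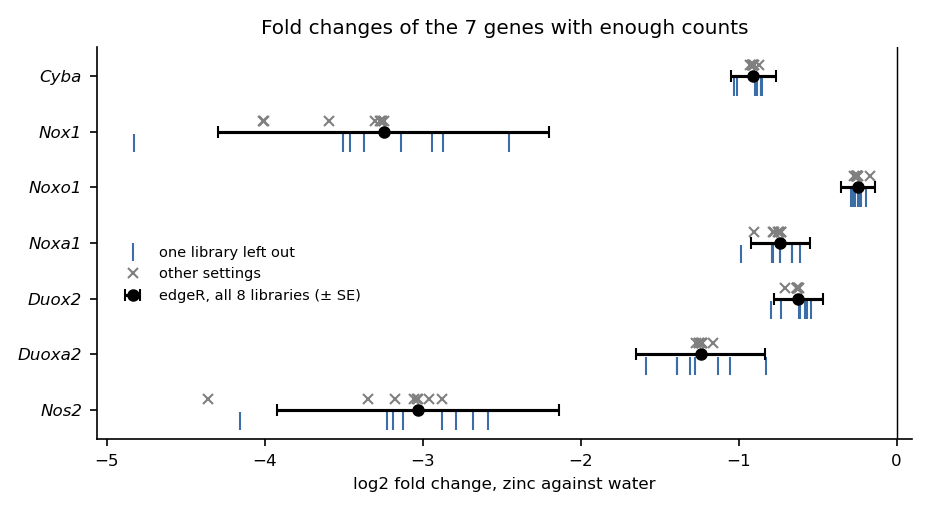
Log2 fold change of zinc against water (horizontal axis) for the 7 genes with enough counts. Black points and bars are the edgeR estimate with its SE, blue ticks the fits that leave out 1 library and grey crosses the other settings, and all lie below 0, with the widest spread for Nox1 and Nos2.

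Replicate 4 stood high in several members of both groups, namely Nox1, Noxa1, Duox2 and Duoxa2. Markers of other cells also differed between mice. Clca1, a goblet cell gene that was picked, like Zg16 and Fcgbp, after its values were seen, had 6235 counts in water replicate 4 and 3190 in zinc replicate 4, against 93 to 614 in the other 6 libraries. Zg16, another goblet cell gene, had 2149 and 4432 counts there against 139 to 588 elsewhere. Fcgbp, also of the goblet cell list, had 34174 and 42175 counts there against 6750 to 25868 elsewhere, so these 3 of the 6 goblet cell markers were highest in replicate 4 of both groups. By counts Tff3 was too, at 21606 and 21930 against 13994 to 19437 elsewhere, whereas Muc2 and Spink4 were not. The sum of all 6 goblet cell markers, of which Spink4 was the largest part, stood at 8903 CPM (water) and 11691 CPM (zinc) in replicate 4. The 4 tuft cell markers summed to 9.94, 18.0, 36.9 and 90.9 CPM in water replicates 1 to 4 and to 13.0, 37.2, 59.4 and 44.3 CPM in zinc replicates 1 to 4. Enterocyte markers summed to 187 to 201 CPM with water and 186 to 255 CPM with zinc, and enteroendocrine markers to 3.44 to 85.4 and 9.50 to 37.5 CPM. Crypt stem cell markers overlapped between the groups by a single pair of libraries, zinc replicate 1 above water replicate 1. The part of these cells, of phagocytes and of the scaling in the members' values was not tested. With replicate 4 of both groups left out, log2 fold changes were -4.01 for Nox1, -0.90 for Noxa1, -0.87 for Cyba, -0.71 for Duox2, -1.16 for Duoxa2, -2.88 for Nos2 and -0.17 for Noxo1. Nox1 was then the 1 member past the threshold and Cyba was not.

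The level of the genes relative to each other was compared within each library, as CPM per kilobase of merged exons, over water and zinc mice together. Cyba was the most abundant at 11.4 ± 4.05, followed by Noxa1 at 10.2 ± 3.31, Noxo1 at 8.61 ± 0.942 and Duox2 at 5.21 ± 1.49 CPM per kb (SD, n = 8). These 4 genes lay at percentiles 76.3 to 89.3 of all tested genes. Duoxa2 at 1.23 ± 0.810, Nox1 at 2.53 ± 3.43 and Nos2 at 0.566 ± 0.561 CPM per kb (SD, n = 8) were lower. Nox1 has the higher arithmetic mean but ranks below Duoxa2 by mean log2 level. Parts of the order differed between the groups. Nox1 stood at 4.60 ± 3.98 and Duoxa2 at 1.73 ± 0.871 CPM per kb with water, but at 0.469 ± 0.608 and 0.730 ± 0.328 with zinc (SD, n = 4 per group). Noxa1 stood at 12.7 ± 1.48 and Noxo1 at 9.34 ± 0.439 CPM per kb with water, but at 7.63 ± 2.46 and 7.88 ± 0.684 with zinc (SD, n = 4 per group). Both changes of order were not tested. In each group Cyba came first and Nos2 last, at 14.9 ± 2.12 and 1.00 ± 0.448 CPM per kb with water and at 7.96 ± 1.38 and 0.131 ± 0.165 with zinc.

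Neighbours in the order of mean log2 level were compared over the 8 mice by an exact two-sided sign-flip permutation test, adjusted by Benjamini-Hochberg over the 6 pairs, with 0.01 added to each level. Noxo1 was above Duox2 in 8 of 8 mice, by 0.77 ± 0.37 on the log2 scale (SD, exact permutation p = 0.0078, adjusted 0.0234). Duox2 was above Duoxa2 in 8 of 8 mice, by 2.26 ± 0.56 (SD, exact permutation p = 0.0078, adjusted 0.0234), where 0.0078 is the smallest p that 8 mice allow. Nox1 was above Nos2 in 7 of 8 mice, by 1.90 ± 1.39 (SD). This pair is given without its p, because the zinc libraries alone did not meet the low-count filter for either gene. Both genes rest on 0 to 2 counts in some zinc libraries. With 1 library left out, the order was taken anew from the remaining 7 mice. The neighbours compared could therefore differ from the pairs named above. No neighbour pair passed without zinc replicate 2 or without zinc replicate 3 (0 of 6 each), where 7 mice allow a smallest exact permutation p of 0.0156. These counts do not say how each pair named above fared.

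The other neighbours did not differ beyond their spread. Cyba was above Noxa1 in 7 of 8 mice, by 0.16 ± 0.31 on the log2 scale (SD, exact permutation p = 0.180, adjusted 0.270). Noxa1 was above Noxo1 in 5 of 8 mice, by 0.17 ± 0.46 (SD, exact permutation p = 0.312, adjusted 0.375). Duoxa2 was above Nox1 in 3 of 8 mice, by 0.19 ± 1.82 (SD). This last pair is given without its p, because the zinc libraries alone did not meet the low-count filter for Nox1. With the longest transcript as the length in place of merged exons, Noxo1 moved above Noxa1 and Nox1 above Duoxa2, so the neighbours themselves changed. The pairs past the threshold were then Noxa1 above Duox2, Duox2 above Nox1 and Duoxa2 above Nos2, none of which was a neighbour pair with merged exons. The pairs with Nox1 or Nos2 carry the same limit of the low-count filter. The catalytic subunit Nox1 lay below its partners Cyba and Noxa1 in all 8 libraries and below Noxo1 in all but water replicate 4, where Nox1 reached 10.5 CPM per kb.

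**Figure D3:**
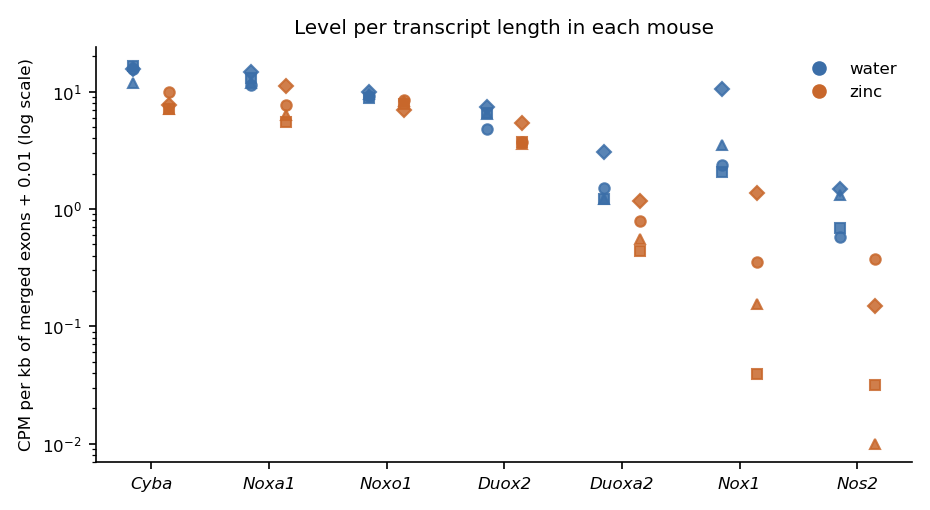
Level of the 7 genes in each mouse, as CPM per kb of merged exons plus 0.01 (vertical axis, log scale), in the order of mean log2 level. Blue is water and orange is zinc, marker shapes give the replicate number as in the plot of levels by mouse, and Nox1 and Nos2 span the widest range between mice.

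Members also varied together between mice, which is given as a description over 8 libraries that share depth and scaling. Over all 8 libraries the 21 pairs of the 7 genes had a median Pearson r of 0.82 in log2 CPM, a value that includes the difference between the groups. After the group means were taken out, the median was 0.45. Nox1 and Noxa1 kept r = 0.93, Nox1 and Duoxa2 r = 0.92, Noxa1 and Duoxa2 r = 0.84 and Noxa1 and Duox2 r = 0.81. The divergent neighbours Duox2 and Duoxa2 had r = 0.63. Cyba was close to 0 with Duox2 (r = -0.04) and at 0.25 with Nox1, its catalytic partner, and Noxo1 was negative with Noxa1 (r = -0.48) and with Duox2 (r = -0.42). On library totals the corresponding values were 0.77 for Cyba with Duox2, 0.71 for Cyba with Nox1, 0.68 for Noxo1 with Noxa1 and 0.85 for Noxo1 with Duox2, so the low and negative values were seen on the TMM scale alone. The pairs Nox1 with Noxa1 (0.89) and Nox1 with Duoxa2 (0.93) were as high on library totals.

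**Figure D4:**
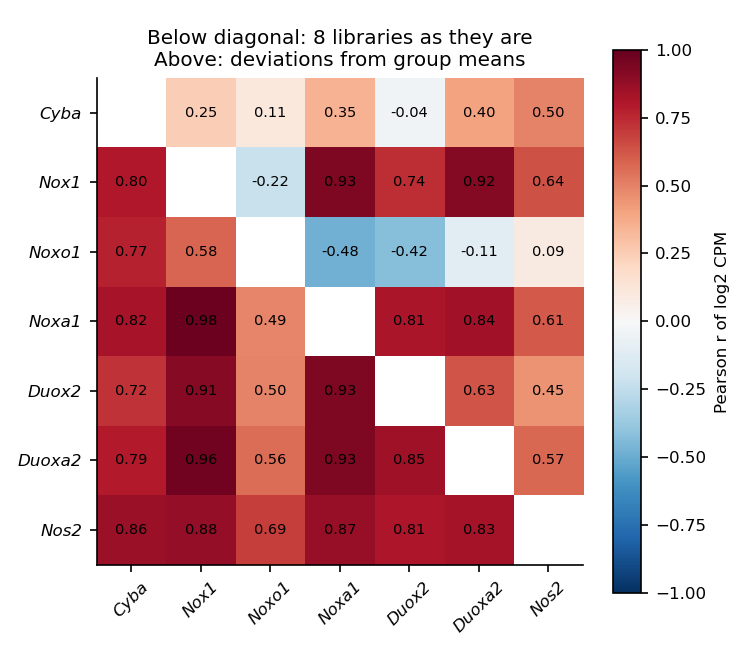
Pearson r of log2 CPM between each pair of the 7 genes over 8 libraries (colour and printed value). Below the diagonal the libraries enter as they are, and above it the group means are removed, where Nox1, Noxa1, Duox2 and Duoxa2 stay between 0.63 and 0.93 and Noxo1 falls to between -0.48 and 0.11.

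The tested genes with the most similar pattern were found by Pearson r of log2 CPM over the 8 libraries. For Cyba they were Slc25a1 (r = 0.96), the mitochondrial citrate carrier, Cbx2 (r = 0.95), a Polycomb subunit, and Slc39a4 (r = 0.95), a zinc importer. For Nox1 they were its activator Noxa1 (r = 0.98), Slc38a6 (r = 0.97), a member of an amino acid transporter family, and Nfkb2 (r = 0.97), an NF-κB subunit. For Duox2 they were Ier5 (r = 0.96), an immediate early gene, Slc38a6 (r = 0.95) and Taf2 (r = 0.95), a subunit of the general transcription factor TFIID. For Nos2 they were Pxdn (r = 0.98), a peroxidase of the extracellular matrix, Mycbpap (r = 0.98) and Smarcd3 (r = 0.97), a SWI/SNF subunit. Slc38a6 and Mycbpap were themselves scarce, at a mean of 1.07 and 0.773 CPM. With group means taken out, r was 0.97 for Nox1 with Nfkb2 and 0.98 for Nos2 with Pxdn. Its full range was 0.78 (Cyba with Cbx2) to 0.99 (Nos2 with Mycbpap). With library totals as the scaling, r over all 8 libraries was 0.78 for Nox1 with Nfkb2. Its full range was 0.74 (Cyba with Slc25a1) to 0.98 (Duox2 with Ier5). These were the 3 highest values for each gene among all tested genes, and each rests on 8 points.

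The rest of the pathway was read from 7 lists by function that hold none of the members, 92 genes in all, of which 65 were tested. Of these 65 genes, 1 was lower and 0 were higher at an adjusted p under 0.05 in edgeR, and at an unadjusted p under 0.05 there were 8 lower and 0 higher, where 2.81% of all tested genes were lower. DESeq2 and limma-voom called the same gene, Pxdn, and no other. The median log2 fold change of the 65 genes was -0.06, with 44 below 0, against 0.01 over all 11988 tested genes. Pxdn, Reg3b and Reg3g, which are among the 8 lower genes, were listed with their lower values in these libraries already known. The counts and the median are therefore printed for scale and are not evidence.

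Among other oxidase subunits and adaptors, 7 of 14 genes were tested and none was called, with 0 at an unadjusted p under 0.05 in edgeR (median log2 fold change 0.04). Rac1, the GTPase that activates Nox1 complexes, averaged 146 ± 11.3 CPM in water mice and 151 ± 10.5 CPM in zinc mice (SD, n = 4 each, log2 fold change 0.04, SE 0.11, edgeR adjusted p = 0.998), and was named after its values were seen. Ncf1 and Ncf4, cytosolic subunits of the phagocyte oxidase, had 0 counts in every library, as did Nox3. Duox1 had at most 2 counts in any library. All dedicated subunits of the Nox1 and Duox2 complexes were thus detected, whereas Cybb, Ncf1 and Ncf4 of the phagocyte complex were not detectable at this depth.

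Of 19 genes for nitric oxide, arginine and tetrahydrobiopterin, 14 were tested and none was called, with 0 at an unadjusted p under 0.05 in edgeR (median log2 fold change -0.02, range -0.20 to 0.28). The neuronal synthase gene Nos1 had 0 counts in every library and the endothelial synthase gene Nos3 had 1 count in zinc replicate 1 only. Nos2 was thus the 1 nitric oxide synthase gene above the limit that 0 counts allow in any library. With zinc, Nos2 was above this limit in replicates 1 and 4 only. Ass1, which encodes an enzyme that rebuilds arginine, had the smallest p (log2 fold change 0.28, SE 0.20, edgeR adjusted p = 0.998). Gch1, the first enzyme of cofactor synthesis for nitric oxide synthases, was at 1.61 ± 0.281 and 1.69 ± 0.480 CPM (SD, n = 4 each) and was named after its values were seen.

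Enzymes around the oxidases showed small differences. Of 14 genes that remove superoxide or hydrogen peroxide, 12 were tested and none was called (median log2 fold change -0.05), with 1 lower and 0 higher at an unadjusted p under 0.05 in edgeR. That gene was Gpx2, the glutathione peroxidase of gut epithelium, at 209 ± 20.4 CPM in water mice and 169 ± 25.6 CPM in zinc mice (SD, n = 4 each, log2 fold change -0.31, SE 0.13, edgeR adjusted p = 0.998). Of 13 genes that make NADPH, 12 were tested and none was called, with 0 at an unadjusted p under 0.05 in edgeR (median -0.02), and the smallest p was that of Aldh1l1 (log2 fold change -0.16, SE 0.14, edgeR adjusted p = 0.998). The untested gene was Nnt, with at most 7 counts per library, a gene known to be disrupted in C57BL/6J mice.

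Of 5 haem peroxidases, which use hydrogen peroxide, 1 was tested and called. Pxdn was at 9.94, 12.3, 13.2 and 14.4 CPM with water and at 5.94, 2.95, 2.41 and 4.89 CPM with zinc in replicates 1 to 4, with no overlap between the groups. The log2 fold change came to -1.63 with an SE of 0.25 (edgeR adjusted p = 0.0198), and the call was absent without water replicate 2, without water replicate 3 and without zinc replicate 2. Mpo had 0 counts in every library. Pxdn was on the list with its earlier result known, so its call is not independent evidence.

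Receptors and transcription factors that are known to induce Duox2, Nox1 or Nos2 were expressed, with 15 of 16 tested. None was called, and 3 were lower and 0 higher at an unadjusted p under 0.05 in edgeR (median log2 fold change -0.13, range -0.45 to 0.12). The 3 genes were the interferon gamma receptor subunits Ifngr1 and Ifngr2 and the IL-22 receptor subunit Il22ra1, the last pair named after their values were seen. Ifngr1 averaged 38.4 ± 9.76 CPM in water mice and 28.2 ± 3.09 CPM in zinc mice, and the groups overlapped (SD, n = 4 each, log2 fold change -0.45, SE 0.16, edgeR adjusted p = 0.881). The log2 fold changes of Ifngr2 and Il22ra1 were -0.37 (SE 0.14) and -0.39 (SE 0.18).

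Of 11 epithelial genes known to be induced together with Duox2 and Nos2 by contact with microbes, 4 were tested. None was called, and 3 were lower and 0 higher at an unadjusted p under 0.05 in edgeR (median log2 fold change -1.21, range -1.87 to -0.73). The smallest p belonged to Ccl28, which encodes an epithelial chemokine, at 28.6 ± 5.47 CPM in water mice and 17.3 ± 5.23 CPM in zinc mice (SD, n = 4 each, log2 fold change -0.73, SE 0.20, edgeR adjusted p = 0.523). The groups overlapped, with zinc replicate 1 at 24.1 CPM above water replicate 1 at 22.3 CPM. Reg3b and Reg3g, antimicrobial lectins, were on the list with their lower values already known. Both are among the 3 lower genes and both enter the median and range, so these values are not independent evidence. Saa1, Saa2 and Saa3 are acute phase genes that were named after their values were seen. They had 103, 71 and 19 counts in water replicate 4 and at most 2 counts in any other library. In CPM, water replicate 4 was also the highest library of every fitted member except Cyba.

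**Figure D5:**
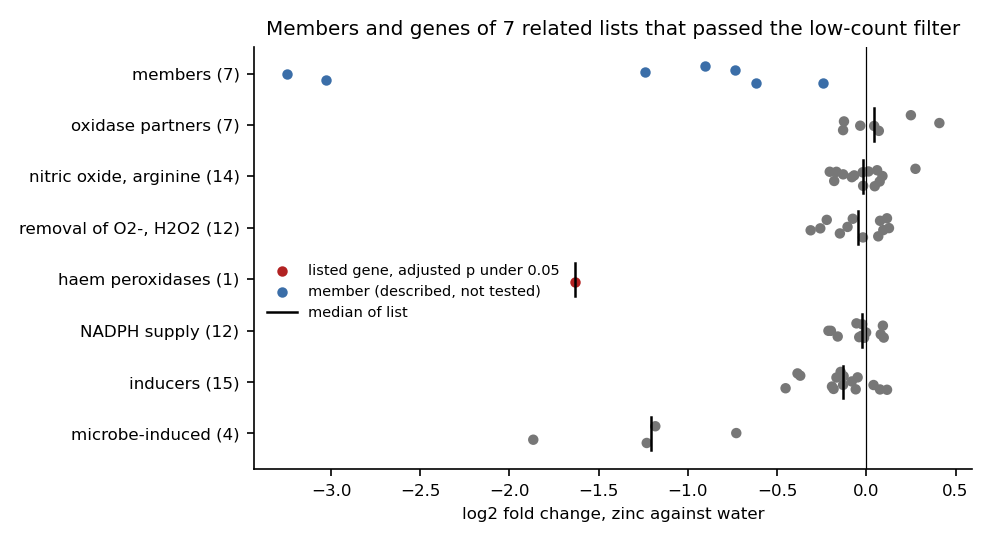
Log2 fold change of zinc against water (horizontal axis) for the 7 members that passed the low-count filter (blue) and for the tested genes of 7 related lists (number in brackets). Red marks an adjusted p under 0.05 and black lines are list medians. Most listed genes lie near 0, with Pxdn at -1.63 and the 4 microbe-induced genes between -1.87 and -0.73. Pxdn, Reg3b and Reg3g were listed with their lower values already known.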

How the data were processed

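RNA was measured in sorted Paneth cells of 4 water and 4 zinc mice, with libraries from a stranded mRNA kit. The authors deposited whole-number counts of reads for each Ensembl gene ID in 1 table, unnormalized, where each column is 1 library. The submitters' processing notes name STAR 2.7.0a, FastQC 0.12.0, DESeq2 and the build mm39. Counting program, strand setting and treatment of multi-mapped reads were not given in the sources used here. Symbols, positions and lengths came from GENCODE M39 on GRCm39, the same build (54749 of 55414 IDs matched). Promoter windows were read from GRCm39 at the start of the canonical transcript.

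Zinc was compared with water in edgeR 4.0.16 (R 4.3.3; default low-count filter with minimum count 10, TMM, robust quasi-likelihood F test, treatment only), adjusted by Benjamini-Hochberg over 11988 genes with a threshold of 0.05. SEs were taken as |log2 fold change| divided by √F. Correlations used log2 CPM with a prior count of 2. The procedure was tested on simulated counts. The members and lists were chosen with earlier results of these data known. The text names all members, every called gene of a list or otherwise its gene of smallest p (for 1 list not reported here), and the 3 genes most like Cyba, Nox1, Duox2 and Nos2. Alternatives were RLE factors, library totals, DESeq2 1.42.0, limma-voom (limma 3.58.1), other low-count filters, the replicate number as a block, each library left out and, chosen after seeing the data, replicate 4 of both groups left out. Libraries within a group differed by at least 31.5 times the sampling noise (chi-square per degree of freedom) and each counted as 1 replicate. Each came from 1 mouse, so the p-values cover the spread between mice.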

Additional observations from a re-analysis of the deposited data

Results flagged for a closer look

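Library totals, the 7 members and the list genes chosen by call or smallest p were screened by Dixon's test (95% level) in each group of 4. Genes named after their values were seen were not screened, among them Saa1, Saa2 and Saa3 with their high counts in water replicate 4. Of 30 groups it singled out 2, where chance singles out about 1 in 20. Duox2 stood at 36.7 CPM in zinc replicate 4, with the remaining zinc libraries at 24.2 to 25.2 CPM. The gap was 0.919 of the range on the TMM scale and 0.769, no longer past the critical value, on library totals. Duoxa2 stood at 4.81 CPM in water replicate 4, with the remaining water libraries at 1.90 to 2.38 CPM and a gap of 0.837 of the range and of 0.947 on library totals.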

How the results depend on the processing

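Directions of the 7 fitted members held in every alternative in which they could be fitted, while counts of calls moved. The members called lower (1) became 0 on library totals (Cyba lost), 3 without the low-count filter and 4 with the replicate number as a block (Cyba, Nox1, Duox2 and Noxa1), and ranged from 0 to 3 without single libraries (0 without water replicate 2 or zinc replicate 2, 3 without zinc replicate 4). Other pathway genes called lower (1) became 2 on library totals, where Reg3g was added, and 3 without the low-count filter, and ranged from 0 to 1 without single libraries. Over all genes, 7 lower and 3 higher became 26 and 8 in DESeq2, 55 and 11 without the low-count filter, and 26 and 6 with the replicate block. Without single libraries these ran from 1 to 12 lower (1 without water replicate 2 or zinc replicate 2, 2 without water replicate 3, 12 without zinc replicate 4) and from 0 to 5 higher. Same-numbered water and zinc libraries had deviations with r = 0.233, 0.000055, 0.127 and 0.263 over tested genes for numbers 1 to 4. Numbers 1, 3 and 4 correlated best with themselves. Number 2 of each group correlated best with number 3, at only r = 0.0025 for water replicate 2. TMM factors of numbers 1 to 4 were 0.764, 1.02, 1.07 and 1.21 with water and 0.775, 0.998, 1.05 and 1.23 with zinc. These values were a hint from the data that was not taken as a pairing. The count of neighbour pairs of levels that passed (3) fell to 0 without zinc replicate 2 or zinc replicate 3. It was at most 4 otherwise, where 7 mice allow a smallest p of 0.0156. The order was taken anew in each of these fits, so the pairs counted could differ. The median r of deviations moved from 0.45 to 0.71 on library totals. The cause of these changes was not tested. Depth limits Nox1 and Nos2 with zinc, which rest on 0 to 116 counts per library.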
